A study of Mus musculus with 32 samples.

Results

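Mouse 3T3-L1 adipocytes were kept in CAP7 for 24 h with or without tumour necrosis factor alpha (TNF), and what TNF did in the presence of CAP7 was read from 8 of the 32 libraries of the study. The 8 libraries were chosen by their labelled treatment alone: 4 from cells given TNF plus CAP7 and 4 from cells given CAP7 alone. All 14428 genes with enough counts were compared between them. 3T3-L1 is a preadipocyte line that becomes fat cells after insulin, dexamethasone and IBMX, so the cultures represent 1 line grown without the immune and vascular cells of fat tissue. The response was set beside that of 3 other pairs of groups with 4 libraries each: TNF plus ROSI against ROSI, TNF plus SCO against SCO, and TNF plus DMSO against DMSO, the vehicle. ROSI is rosiglitazone, an agonist of PPARγ. The labels do not define SCO, and the title of the study names an extract of Artemisia scoparia. The sources used here do not say what CAP7 is, at which dose each agent was given or which came first. The labels call the 4 libraries of a group biological replicates without naming separate cultures or days, so the p-values below measure the spread between these libraries.

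TNF binds 2 receptors, and through adaptor proteins and the IκB kinases it frees the transcription factor NF-κB to enter the nucleus. NF-κB switches on chemokines, cytokines and adhesion molecules together with its own inhibitors, which close the loop. In fat cells TNF is known for lowering the programme run by PPARγ and C/EBPα, the transcription factors that build and maintain the lipid-storing cell, for releasing fatty acids, and for blunting the response to insulin.

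The sequences below are stretches of the promoters of 3 inhibitors of NF-κB signalling and of a pair of strongly induced genes. They are shown because each holds a match to the κB consensus, the motif of 10 bases that NF-κB dimers bind. They are taken from RefSeq on the build GRCm38.p6, on the strand of the gene, with the match in capitals.

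Nfkbia, chr12:55492648-55492701, strand -: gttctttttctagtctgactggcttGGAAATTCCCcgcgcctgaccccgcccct

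Tnip1, chr11:54962962-54963023, strand -: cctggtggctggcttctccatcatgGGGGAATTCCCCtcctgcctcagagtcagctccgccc

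Tnfaip3, chr10:19015501-19015560, strand -: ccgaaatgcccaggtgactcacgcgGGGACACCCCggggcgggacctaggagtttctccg

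Cxcl10, chr5:92349014-92349073, strand -: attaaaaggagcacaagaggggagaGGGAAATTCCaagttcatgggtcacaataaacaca

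Cxcl10, chr5:92348958-92349018, strand -: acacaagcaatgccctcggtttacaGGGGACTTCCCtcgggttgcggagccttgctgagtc

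Gbp5, chr3:142496832-142496891, strand +: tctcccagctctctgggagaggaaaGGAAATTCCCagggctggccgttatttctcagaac

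The search covered 250 bases before to 50 bases after each RefSeq start, on both strands, and overlapping matches were joined. Each gene was counted once, as matched if any of its windows held a match, so genes with several starts had more chances. With TNF in the presence of CAP7, 377 of 2561 genes that rose and had a window held a match (14.7%). Among genes that fell it was 270 of 2439 (11.1%). For changes of at least 2-fold it was 171 of 898 genes (19.0%) that rose and 53 of 406 (13.1%) that fell. Of the 12 largest increases described below, 7 had a window and 2 of these held a match, Cxcl10 and Gbp5. Among all genes tested that had a window the share was 12.3% (1238 of 10060), and among all genes with a RefSeq promoter it was 9.55%. Of the NF-κB subunits and inhibitors 8 of 12 genes with a window held a match, and of the chemokines 5 of 12. These are matches of letters, not measured binding.

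TNF changed close to equal numbers of genes in each direction in cells with CAP7. Genes were called at an adjusted p under 0.05 in edgeR's quasi-likelihood test over all genes. By this rule 3381 genes rose (23.4% of those tested) and 3231 fell (22.4%), together 45.8%. Changes of at least 2-fold, 13% of genes, were mostly increases: 1254 rose and 627 fell by that much. In 5810 genes (40.3%) the 4 libraries with TNF and the 4 without did not overlap. The median of all genes was a log2 change of -0.0035. The split and the median depend on how libraries are scaled. Scaled by library size alone, 3570 genes rose and 2992 fell, with a median of 0.02. In these bulk cultures, fewer cells of a kind and less RNA per cell cannot be told apart, here and in all results that follow. Below, levels are normalised counts scaled to a common library total (CPM), in the order of replicates 1 to 4 or as mean ± SD of 4 libraries. Changes are log2 values ± SE with 4 libraries against 4. The background for any list of genes is the shares of all genes tested given above.

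The 8 libraries held 17008930 to 28569986 counts each. Principal component 1, with 53% of the variance, set libraries with TNF apart from those without. Replicate 1 of CAP7 alone sat at -52.7 on that axis and the other 3 at -62.7 to -62.4, still far from the libraries with TNF at 37.9 to 44.5. Mitochondrially encoded genes took 10.3 to 12.8% of counts with TNF plus CAP7 and 11.1 to 13.6% with CAP7 alone. The labelled cell type was checked against its markers. Adiponectin (Adipoq), the fatty acid carrier Fabp4, perilipin 1 (Plin1) and complement factor D were abundant in all 8 libraries, and leptin was nearly absent, with 1 count over the 4 libraries with TNF plus CAP7 and 11 over those with CAP7 alone. Of 17 markers of macrophages and other leukocytes 8 had no count in any of the 8 libraries, among them Ptprc, Adgre1, Itgam and Tyrobp. The list summed to 30.3 to 35.0 CPM with TNF plus CAP7, against 4.20 to 8.34 CPM with CAP7 alone, nearly all of it Cd14 and Cd68. Cd14, a co-receptor for bacterial lipopolysaccharide, averaged 26 ± 2.02 CPM with TNF plus CAP7 and 3.91 ± 1.35 CPM with CAP7 alone. Mrc1, the mannose receptor, was at 0 in the 4 libraries with CAP7 alone and had 56 counts over those with TNF, at least 17.3-fold higher against a floor of 3 counts over the group. Of the 5 members of this list that could be tested 3 rose and none fell. Cd68 had 395 counts with TNF plus CAP7 and 76 with CAP7 alone, and Csf1r 141 and 66. The part of leukocytes in the results below was not tested. Of 12 endothelial and mural markers 3 could be tested, and Notch3 and Pecam1 fell at low levels.

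**Figure D1:**
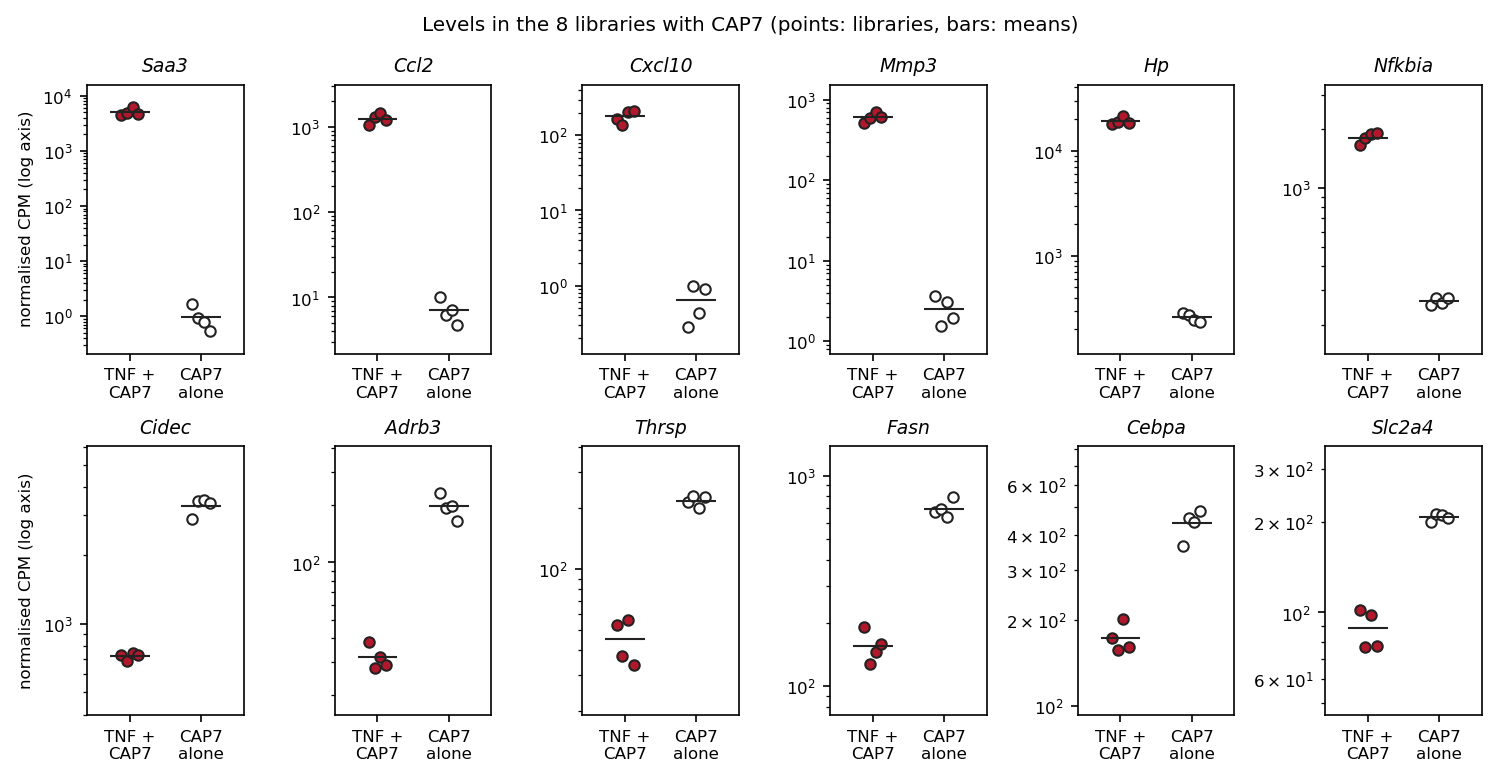
Normalised counts (CPM, log axis) of 12 genes in each of the 4 libraries with TNF plus CAP7 (left of each panel, filled) and the 4 with CAP7 alone (right, open). Bars mark the group means. In the 12 genes the 2 groups do not overlap, with TNF plus CAP7 higher for the first 6 and lower for the last 6. For Saa3, Ccl2, Cxcl10, Mmp3, Cidec, Adrb3, Thrsp and Fasn this was a condition of the rule for the largest changes.

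The first question was how strongly the TNF pathway itself answered when CAP7 was present. Of 16 NF-κB subunits and feedback inhibitors 15 rose and none fell, with a median log2 change of 1.51, against -0.0035 over all genes. Nfkbia encodes IκBα, the inhibitor that NF-κB induces to shut itself off. It stood at 1659.5, 1800.5, 1887 and 1914 CPM with TNF plus CAP7, against 253, 274, 259 and 275 CPM with CAP7 alone. Every library with TNF lay far above every library without, a rise of 2.78 ± 0.0721, adjusted p = 2.13e-28. Tnip1, which helps the ubiquitin editor A20 restrain the pathway, rose by 3.12 ± 0.0646, A20 itself (Tnfaip3) by 3.47 ± 0.129, the subunit Relb by 3.18 ± 0.0866, and the nuclear co-factor Bcl3 by 4.05 ± 0.116. Otud7b, a deubiquitinase of the non-canonical branch, was the member that was not called, at 0.17 ± 0.0789, though it was called with library size alone. Of 19 receptors and proximal signalling genes 12 rose, the kinase and adaptor genes Chuk and Tab2 fell, and the median was 0.47. The TNF receptor 2 gene Tnfrsf1b had 32.9, 40.6, 38.2 and 35.3 CPM with TNF plus CAP7, against 14.3, 11.4, 10.9 and 9.8 CPM with CAP7 alone, without overlap, a rise of 1.67 ± 0.116. The receptor 1 gene Tnfrsf1a rose by 0.17 ± 0.0508, a call that was lost without the filter on low counts, and Traf3, an adaptor, rose by 1.74 ± 0.126. The inhibitor of apoptosis Birc3, which sits in the receptor complex, rose by 2.51 ± 0.131. Traf1, another adaptor, had 1 count over the libraries with CAP7 alone and 676 with TNF, a ratio of 627 (95% counting interval 113 to 24781).

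By the median, chemokines rose more than the other lists of genes compared here. Of 19 measured, 16 rose, Ccl6 fell, Ccl11 and Ccl25 were not called, and the median log2 change was 5.45. Ccl2 draws monocytes into tissue. It was at 1041, 1287, 1466 and 1186 CPM with TNF plus CAP7, against 10.1, 6.25, 7.13 and 4.7 CPM with CAP7 alone. Every library without TNF was near 10 CPM or below, and the groups were far apart, a rise of 7.48 ± 0.17, adjusted p = 3.5e-30. Cxcl10, a T cell attractant, stood at 166, 136, 206 and 213 CPM with TNF plus CAP7, against 0.278, 0.98, 0.426 and 0.897 CPM with CAP7 alone. Its libraries without TNF were all near 0 and did not overlap with those with TNF, a rise of 8.05 ± 0.469. Cxcl1 and Cxcl5, which attract neutrophils, rose by 5.60 ± 0.139 and 5.30 ± 0.134, and Ccl5 by 7.82 ± 0.306. Ccl9 averaged 334 ± 39.3 CPM with TNF plus CAP7 and 15.9 ± 2.59 CPM with CAP7 alone. Of 28 cytokines, their receptors and adhesion molecules 27 rose and none fell, with a median of 2.74, and Il11 was not called. Vcam1, the adhesion molecule for circulating leukocytes, had 595, 539, 613 and 554 CPM with TNF plus CAP7, against 45.6, 37.6, 30.8 and 31.1 CPM with CAP7 alone. These groups were also clear of each other, and the rise was 3.99 ± 0.109. The macrophage growth factor Csf1 rose by 3.10 ± 0.0905, the hyaluronan receptor Cd44 by 3.40 ± 0.0996 and the prostaglandin E synthase Ptges by 2.32 ± 0.0727. Interleukin 6 (Il6) rose by 4.11 ± 0.541 but stayed rare, at 2.07 ± 0.95 CPM with TNF plus CAP7 and 0.123 ± 0.0847 CPM with CAP7 alone.

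Acute phase and complement genes rose in nearly every case. Of 23 tested 21 rose and complement factor D (Cfd), the fat cell product also called adipsin, fell, with a median of 1.97. Saa3, a serum amyloid A made by fat cells and macrophages, had the largest fitted rise of those genes that reached 16 CPM in either group. Its level was 4404, 4937, 6288 and 4609 CPM with TNF plus CAP7, against 1.67, 0.933, 0.792 and 0.538 CPM with CAP7 alone. A transcript at about 1 CPM without TNF was thus among the abundant ones with it, a rise of 12.35 ± 0.23, adjusted p = 5.73e-33. Haptoglobin (Hp), which binds free haemoglobin, stood at 17905, 18917, 21273 and 18506 CPM with TNF plus CAP7, against 287, 276, 246 and 236 CPM with CAP7 alone. No other member was as abundant with TNF, and the rise was 6.20 ± 0.102, adjusted p = 2.26e-34. Complement factor B (Cfb) rose by 6.91 ± 0.133, hemopexin (Hpx), the haem carrier, by 7.70 ± 0.136, and lipocalin 2 (Lcn2), which withholds iron from bacteria, by 5.84 ± 0.139. The lipopolysaccharide-binding protein Lbp averaged 84.7 ± 11.1 CPM with TNF plus CAP7 and 0.436 ± 0.159 CPM with CAP7 alone, a rise of 7.58 ± 0.248. Orosomucoid 1 (Orm1), an acute phase carrier, was not called, at 108 ± 18 CPM with TNF plus CAP7 and 109.5 ± 4.84 CPM with CAP7 alone.

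The interferon-responsive genes rose without exception among those measured. All 35 tested were called higher, with a median of 3.05, and so were all 16 genes of MHC class I presentation and the immunoproteasome, with a median of 2.06. The transcription factor Irf1 stood at 355, 324, 355 and 353 CPM with TNF plus CAP7, against 66.4, 61.1, 53.8 and 57.2 CPM with CAP7 alone. Its groups did not overlap, and it rose by 2.54 ± 0.0811, adjusted p = 1.46e-25. The guanylate-binding protein Gbp2 rose by 3.92 ± 0.155. Gbp5 of the same family had 3 counts over the libraries with CAP7 alone and 4465 with TNF, a ratio of 1381 (95% counting interval 473 to 6698). The immunoproteasome subunits Psmb8 and Psmb10 rose by 4.00 ± 0.181 and 2.87 ± 0.0971, the peptide-loading chaperone Tapbp by 2.49 ± 0.0935 and the class I heavy chains H2-K1 and H2-D1 by 2.21 ± 0.0904 and 1.45 ± 0.0968. The heavy chains share long identical stretches, so reads could have been split between them. Of the remaining large increases, Slc15a3, a peptide and histidine transporter of endolysosomes, had 2 counts without TNF and 3905 with it, a ratio of 1812 (95% counting interval 502 to 14963). Cybb, the catalytic subunit of the phagocyte NADPH oxidase, averaged 45.2 ± 5.85 CPM with TNF plus CAP7 and 0.05 ± 0.0659 CPM with CAP7 alone. U90926, a transcript of unassigned function here, averaged 58.3 ± 10.4 CPM with TNF plus CAP7 and 0.434 ± 0.527 CPM with CAP7 alone.

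Matrix-degrading enzymes and matrix proteins moved in mixed directions. Of 21 proteases and their inhibitors 11 rose, 7 were not called, and Mmp2, Timp3 and Timp4 fell. Stromelysin 1 (Mmp3) stood at 509.7, 596, 711 and 609.6 CPM with TNF plus CAP7, against 3.62, 1.54, 3.05 and 1.94 CPM with CAP7 alone. Its 2 groups were far apart, a rise of 7.93 ± 0.2, adjusted p = 7.56e-29. The collagenase Mmp13 rose by 3.82 ± 0.188, the gelatinase Mmp9 by 6.05 ± 0.326, and Timp1, an inhibitor of these enzymes, by 4.47 ± 0.163. Of 29 matrix proteins 14 fell and 5 rose (Col18a1, Dcn, Thbs1, Col4a1 and Col4a2), with a median of -0.21. Collagen VI alpha 2 (Col6a2) fell by 1.01 ± 0.0653 and thrombospondin 2 (Thbs2) by 0.97 ± 0.0756, and collagen XVIII alpha 1 (Col18a1) and decorin (Dcn) rose by 1.36 ± 0.0964 and 1.26 ± 0.108. The small matrix proteoglycans Ogn and Aspn were among the 12 largest decreases, falling by 2.35 ± 0.159 and 2.28 ± 0.13.

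Genes of the mature fat cell mostly fell. All 9 tested adipocyte markers fell, with a median of -0.96, and of 34 PPARγ targets 25 fell and Angptl4 and the glycerol kinase Gk rose, with a median of -0.83. Of 23 transcription factors of fat cell formation 14 fell and 3 rose. Cebpa, the partner of PPARγ, stood at 174, 157, 202 and 160.2 CPM with TNF plus CAP7, against 365, 458, 445 and 485 CPM with CAP7 alone. The groups were clear of each other, and it fell by 1.34 ± 0.0835 (adjusted p = 1.64e-16). Pparg itself fell by 0.64 ± 0.0782, Klf15, which supports adipogenesis, by 0.88 ± 0.0975, Lpin1, an enzyme and co-activator, by 1.45 ± 0.0784, and Ppargc1b, a co-activator of mitochondrial genes, by 1.76 ± 0.11. Klf5, a factor of early adipogenesis, rose by 3.03 ± 0.146, and Cebpb and Cebpd, which act before PPARγ in differentiation, were the others that rose. Of 14 adipokines 9 fell and 4 rose (Angptl4, Rarres2, Metrnl and Nucb2). Adipoq, the insulin-sensitizing hormone of fat cells, stood at 4210.0, 3804, 4857 and 4122 CPM with TNF plus CAP7, against 8681, 9414, 7977 and 8534 CPM with CAP7 alone. The level with TNF was lower in every library, a fall of 1.03 ± 0.0717 (adjusted p = 4.6e-15). Angiotensinogen (Agt) fell by 1.35 ± 0.0692 and neuregulin 4 (Nrg4), a secreted growth factor, by 1.21 ± 0.121. Among the 4 increases, chemerin (Rarres2) changed by 1.35 ± 0.066, and Angptl4, an inhibitor of lipoprotein lipase, by 1.52 ± 0.062. Fabp4 fell by 0.25 ± 0.1, with overlapping libraries. That call was lost with library size alone, with a stricter filter, with the 8 libraries fitted alone, and in 5 of 8 fits that left out 1 library, at -0.24 to -0.19.

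Lipid droplet and lipolysis genes fell in 17 of 23 cases and rose in 2 (Plin3 and the adenosine receptor Adora1), with a median of -0.82. Cidec, which fuses droplets into the single large one of a white fat cell, was at 730.0, 690.4, 748 and 726 CPM with TNF plus CAP7, against 2887, 3449, 3480.3 and 3399.5 CPM with CAP7 alone. The highest library with TNF stood far below the lowest without, a fall of 2.19 ± 0.0785 (adjusted p = 5.69e-24). Adrb3, the β3-adrenergic receptor that starts lipolysis, had 37.9, 27.9, 31.7 and 28.7 CPM with TNF plus CAP7, against 231, 194, 199 and 166 CPM with CAP7 alone, again without overlap, and fell by 2.65 ± 0.124. The phosphodiesterase Pde3b, through which insulin opposes lipolysis, fell by 1.49 ± 0.0794, the seipin gene Bscl2 by 1.20 ± 0.0711, Plin1 by 0.83 ± 0.0602, and the lipases Lipe and Pnpla2 by 0.96 ± 0.077 and 0.82 ± 0.0709. Of 17 genes of triglyceride synthesis 13 fell and Acsl5 and Gk rose, with a median of -1.10. Gpat3, an acyltransferase of the first step, stood at 51.1, 45.4, 48 and 47.4 CPM with TNF plus CAP7, against 238, 270.5, 247 and 289 CPM with CAP7 alone. It fell by 2.44 ± 0.0912, one of the 12 largest decreases, without overlap. Gpd1, which supplies glycerol phosphate, fell by 1.66 ± 0.093. Acsl5, an acyl-CoA synthetase, rose by 2.57 ± 0.0826, and Dgat2, an enzyme of the last step, was not called at 0.14 ± 0.0745, or called at 0.20 without replicate 4 of TNF plus CAP7.

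De novo lipogenesis genes fell in 13 of 20 cases and rose in 2 (Elovl5 and Fads2), with a median of -0.68. Thrsp, a lipogenic nuclear protein, stood at 53.1, 37.5, 56.4 and 33.7 CPM with TNF plus CAP7, against 214, 230.0, 201 and 227 CPM with CAP7 alone. It fell by 2.27 ± 0.143, without overlap. Fasn, the fatty acid synthase, was at 192, 128, 145 and 159.5 CPM with TNF plus CAP7, against 673, 693, 639 and 791 CPM with CAP7 alone. Its lowest library without TNF exceeded the highest with TNF, and the fall was 2.16 ± 0.119 on the log2 scale (adjusted p = 4.28e-18). The desaturases Scd2 and Scd1 fell by 1.18 ± 0.0613 and 1.06 ± 0.0861, and Acss2, which makes acetyl-CoA from acetate, by 1.24 ± 0.0821. Lipoprotein lipase (Lpl) fell by 1.26 ± 0.0824 and the fatty acid transporter Cd36 by 0.50 ± 0.0633. Of 28 genes of insulin signalling and glucose uptake 19 fell and 4 rose: Grb14 and Ptpn1, which restrain the insulin receptor, the basal glucose transporter Slc2a1, and Hk1. The insulin-responsive glucose transporter Slc2a4 stood at 102, 76.8, 97.8 and 77.5 CPM with TNF plus CAP7, against 199, 212, 210.2 and 206 CPM with CAP7 alone. It fell by 1.23 ± 0.0973, without overlap, and the docking protein Irs1 fell by 1.03 ± 0.0758. The caveola genes Cav1 and Cavin2 fell by 1.49 ± 0.0673 and 1.16 ± 0.0864, and Tbc1d4, which gates the transporter's move to the surface, by 0.55 ± 0.1. Other large decreases were the carbonic anhydrases Car3 (-2.88) and Car2 (-2.26), cytoglobin (Cygb, -2.48), the Notch target Hes1 (-2.39) and the DNA polymerase Poln (-2.26), with no library above the 41.5 CPM of Hes1 in replicate 1 of CAP7 alone.

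Energy metabolism fell broadly. Of 40 genes of the respiratory chain and TCA cycle 39 fell and none rose, with a median of -0.74. The pyruvate dehydrogenase subunit Pdhb stood at 180.1, 151, 169 and 154 CPM with TNF plus CAP7, against 464, 488, 480.2 and 482 CPM with CAP7 alone. Its groups did not overlap, a fall of 1.55 ± 0.0639 (adjusted p = 5.22e-22). Cyc1 of complex III fell by 1.23 ± 0.0708, Dlat of pyruvate dehydrogenase by 1.22 ± 0.0667 and Mdh1 by 1.16 ± 0.097. Cox8b, a cytochrome oxidase subunit typical of muscle and brown fat, was the gene that was not called. Fatty acid oxidation genes fell in 19 of 26 cases and rose in 1 (Acaa1a), with Etfb at -1.03 ± 0.0707, Hadhb at -0.99 ± 0.0756 and Cpt2 at -0.77 ± 0.0615. Breakdown of branched-chain amino acids fell in 20 of 25 and rose in 2 (Bcat1 and Bckdhb), with Ivd at -1.14 ± 0.0794 and Bcat2 at -1.12 ± 0.0861. Cholesterol synthesis and uptake fell in 20 of 25, and the efflux pumps Abca1 and Abcg1 and the isomerase Ebp rose. Insig1, a sensor of sterols and itself a target of SREBP, fell by 1.75 ± 0.101, Fdps by 1.03 ± 0.0619 and Hmgcs1 by 0.98 ± 0.067.

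Stress-response lists were split. Of 33 NRF2 and antioxidant genes 8 rose and 14 fell. Mitochondrial superoxide dismutase (Sod2), also an NF-κB target, rose by 2.37 ± 0.0645, ferritin heavy chain (Fth1) by 1.11 ± 0.0622 and glutathione peroxidase 1 (Gpx1) by 1.17 ± 0.0704, and catalase (Cat) fell by 1.09 ± 0.0674. Nqo1, a quinone reductase, rose by 1.78 ± 0.115, and haem oxygenase 1 (Hmox1) fell. Hmox1 stood at 273, 345, 169 and 447 CPM with TNF plus CAP7, against 640.1, 471, 526 and 608 CPM with CAP7 alone. The groups did not overlap, and the fall was 0.86 ± 0.2 (adjusted p = 0.000443). Of 33 genes that answer unfolded proteins or a lack of amino acids 17 fell and 7 rose: Edem1, which clears misfolded proteins, fell by 1.05 ± 0.0659, the serine synthesis enzyme Psat1 by 0.85 ± 0.0617, and the stress factors Atf5 and Xbp1 by 0.77 ± 0.0714 and 0.58 ± 0.0563. Of 22 AP-1 and immediate early factors 17 rose and Fos, Nr4a1 and Dusp1 fell, and the rises were led by Junb (3.55 ± 0.11), Ier5 (2.32 ± 0.084) and Egr1 (2.19 ± 0.0851). Of 17 metallothioneins and metal-handling genes 10 rose and Tfrc, the iron exporter Slc40a1 and the ferritin light chain Ftl1 fell. Metallothionein 2 (Mt2), which binds zinc and copper, stood at 11816, 13468, 11037 and 12031 CPM with TNF plus CAP7, against 1975, 1593, 2188 and 1716 CPM with CAP7 alone. Every library with TNF lay above every one without, a rise of 2.69 ± 0.15. Mt1 rose by 1.49 ± 0.0777, ceruloplasmin (Cp) by 2.90 ± 0.0922 and the zinc transporter Slc39a14 by 2.72 ± 0.11, and the transferrin receptor Tfrc fell by 0.71 ± 0.0957.

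Cell cycle genes rose in 25 of 32 cases and fell in 2 (Cdkn1a and Cdkn2c), with a median of 0.84. Cyclin D1 (Ccnd1), which starts the G1 to S transition, stood at 174, 224, 238 and 212 CPM with TNF plus CAP7, against 95.7, 77.3, 73.5 and 73.6 CPM with CAP7 alone. It rose by 1.40 ± 0.0868, without overlap. The replication licensing genes Mcm3 and Mcm6 rose by 1.90 ± 0.109 and 1.69 ± 0.112. Cdkn2c, an inhibitor of the cyclin D kinases, fell by 1.78 ± 0.0926. Of 17 markers of preadipocytes and fibroblasts 8 rose and 4 fell (Ccn5, Ly6c1, Dlk1 and Gsn), with Cd44 and smooth muscle actin (Acta2) up by 3.40 ± 0.0996 and 1.67 ± 0.163, Pdgfra by 1.09 ± 0.129, and Ccn5 at -1.46. The list summed to 3301 to 4369 CPM with TNF plus CAP7, against 2905 to 3251 CPM with CAP7 alone.

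The second question was whether TNF did the same in cells with CAP7 as in cells with vehicle. The 2 responses share no library, and across the 14428 genes their log2 changes had a Pearson correlation of 0.824, where genes are not independent replicates. Changes spread less with CAP7 (SD 1.06) than with DMSO (SD 1.20). With DMSO 3852 genes rose (26.7%) and 3965 fell (27.5%). Of the genes that rose with CAP7, 77.7% also rose with DMSO, which is 68.2% of the DMSO increases. For the decreases, 76.5% of the CAP7 genes and 62.3% of the DMSO genes were shared. The difference of the 2 responses was tested directly as an interaction. It was called for 2334 genes (16.2%): 1480 (10.3%) had a higher log2 change with CAP7 and 854 (5.92%) a lower one. A higher difference can mean a smaller fall, and that was the commonest case. In 682 of the 2334 genes TNF lowered the gene in both settings, by less with CAP7, and in 447 it was called lower only with DMSO. In 225 it raised the gene in both, by less with CAP7, and in 360 only with DMSO. Larger or opposite responses with CAP7 were fewer: 150 rose more, 34 fell more, 141 and 162 were called higher and lower only with CAP7, and 49 and 57 were called in opposite directions.

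**Figure D2:**
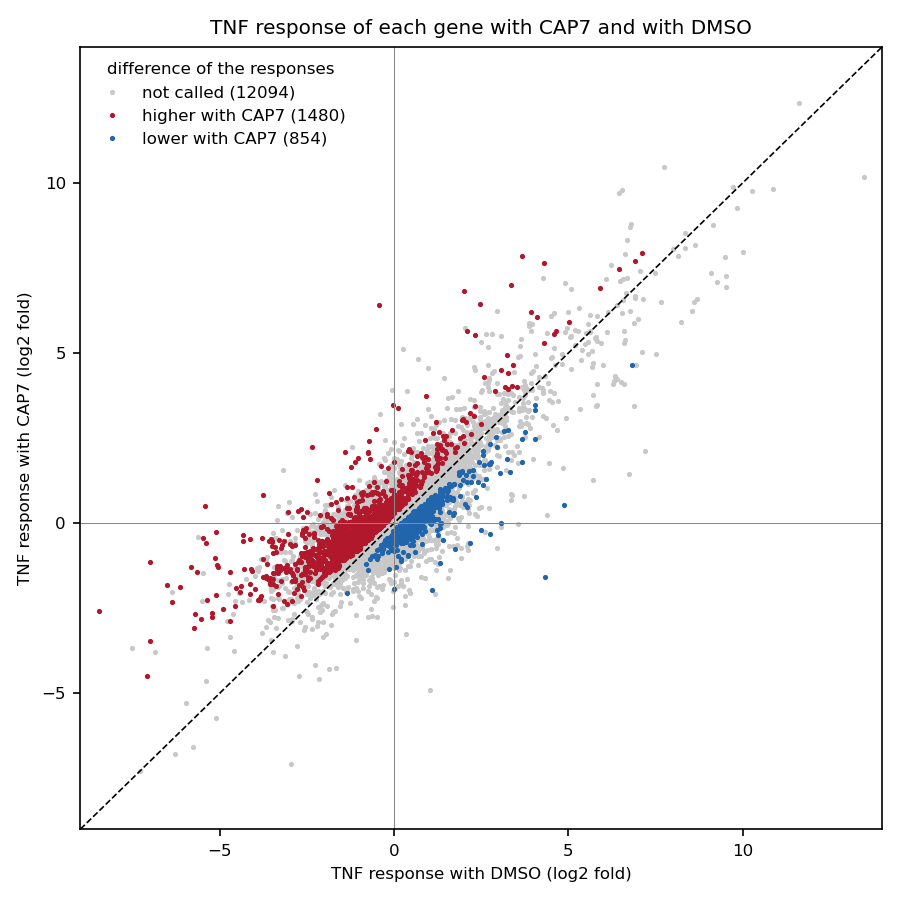
Log2 TNF response of each of 14428 genes with CAP7 (vertical) against that with DMSO (horizontal), with genes whose difference was called higher with CAP7 in red, lower in blue and the others in grey, and the line of equality dashed. Many red points lie at the lower left above the line, where the fall was smaller with CAP7.

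**Figure D3:**
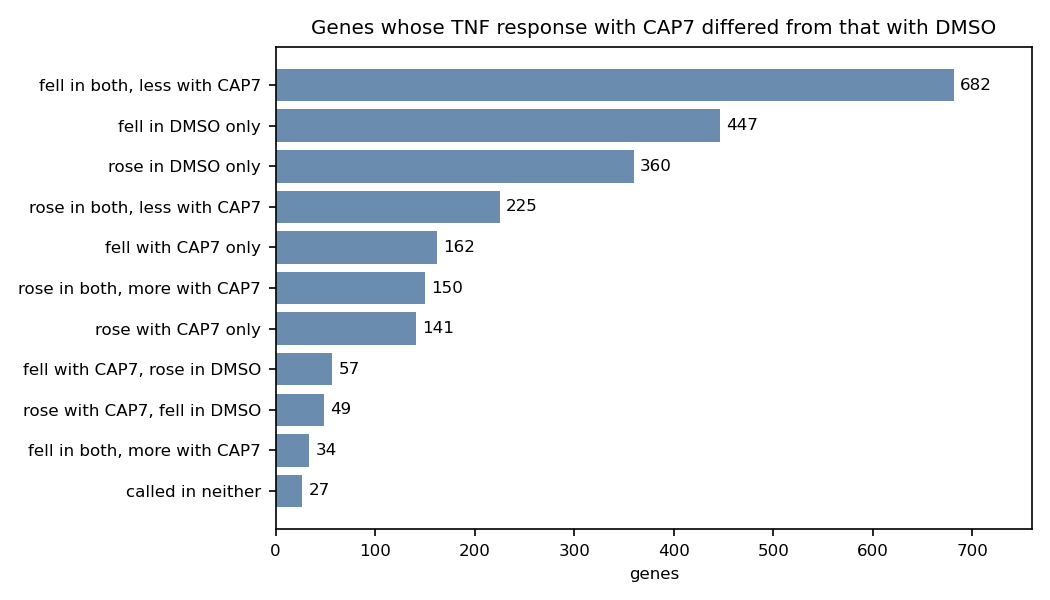
Number of genes (bars) in each class among the 2334 whose TNF response with CAP7 differed from that with DMSO. The longest bars are falls in both settings that were smaller with CAP7 (682) and falls called only with DMSO (447).

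Fat cell genes differed mostly in the higher direction. All 9 adipocyte markers, 27 of 34 PPARγ targets, 16 of 23 lipid droplet and lipolysis genes and 12 of 17 triglyceride synthesis genes had a higher log2 change with CAP7 than with DMSO. The lower direction held none of the markers, Angptl4 and Plin2 of the targets, Plin2 of the droplet genes and Lpin2 of the triglyceride genes. The median response of the PPARγ targets was -0.83 with CAP7 and -1.51 with DMSO, and of the droplet genes -0.82 with CAP7 and -1.59 with DMSO. Thrsp fell by 2.27 with CAP7 and by 5.37 with DMSO, a difference of 3.10 ± 0.21, adjusted p = 7.07e-14. With DMSO its levels were 9.03, 6.57, 7.39 and 9.27 CPM with TNF, against 343, 335, 375 and 288 CPM without, so the libraries with TNF were several times lower than those with TNF plus CAP7 above. Adrb3 differed by 2.59 ± 0.179, the glycosyltransferase gene B3galt2 by 3.85 ± 0.201, Clstn3 by 2.63 ± 0.157, Rasd1, a small GTPase induced by dexamethasone, by 2.54 ± 0.23 and the PACAP receptor Adcyap1r1 by 2.33 ± 0.273. With 6030408B16Rik at 2.65 ± 0.419, these and Pck1 were the 8 highest called differences among genes that reached a mean of 16 CPM in 1 of the 4 groups.

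Pck1 makes the glycerol backbone for fat storage. It stood at 112, 87.4, 102 and 66.7 CPM with TNF plus CAP7, against 169, 192, 188 and 224 CPM with CAP7 alone, and with vehicle at 3.55, 4.84, 3.05 and 2.92 CPM with TNF, against 57.3, 41.9, 43.3 and 50.6 CPM without. It fell by 1.07 ± 0.125 with CAP7 and by 3.77 ± 0.164 with DMSO, a difference of 2.71 ± 0.207, adjusted p = 1.47e-12. Cebpa differed by 1.46 ± 0.118, Cidec by 1.66 ± 0.108, Lipe by 1.67 ± 0.109, Gpd1 by 1.81 ± 0.13, Arxes2 by 1.85 ± 0.127 and Adipoq by 0.75 ± 0.101. Dgat2 fell by 1.82 with DMSO and was not called with CAP7, and the difference was 1.96 ± 0.107. For glucose uptake, Slc2a4 differed by 1.21 ± 0.139 and Cavin2 by 1.52 ± 0.122. Oxidation of fatty acids (19 of 26 higher, Cpt1a lower) and of branched-chain amino acids (17 of 25 higher) followed the same direction, with Abcd2, a peroxisomal fatty acid transporter, at 1.59 ± 0.12 and Hibch at 0.88 ± 0.109. The respiratory chain and TCA cycle did so in 13 of 40, where Mdh1 differed by 0.94 ± 0.136. Cholesterol synthesis, with 7 of 25 higher, had a median difference of -0.03, against 0.06 over all genes. Not every fat cell gene differed: Cav1 fell by 1.49 with CAP7 and by 1.40 with DMSO (difference -0.09, 95% interval -0.28 to 0.10).

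**Figure D4:**
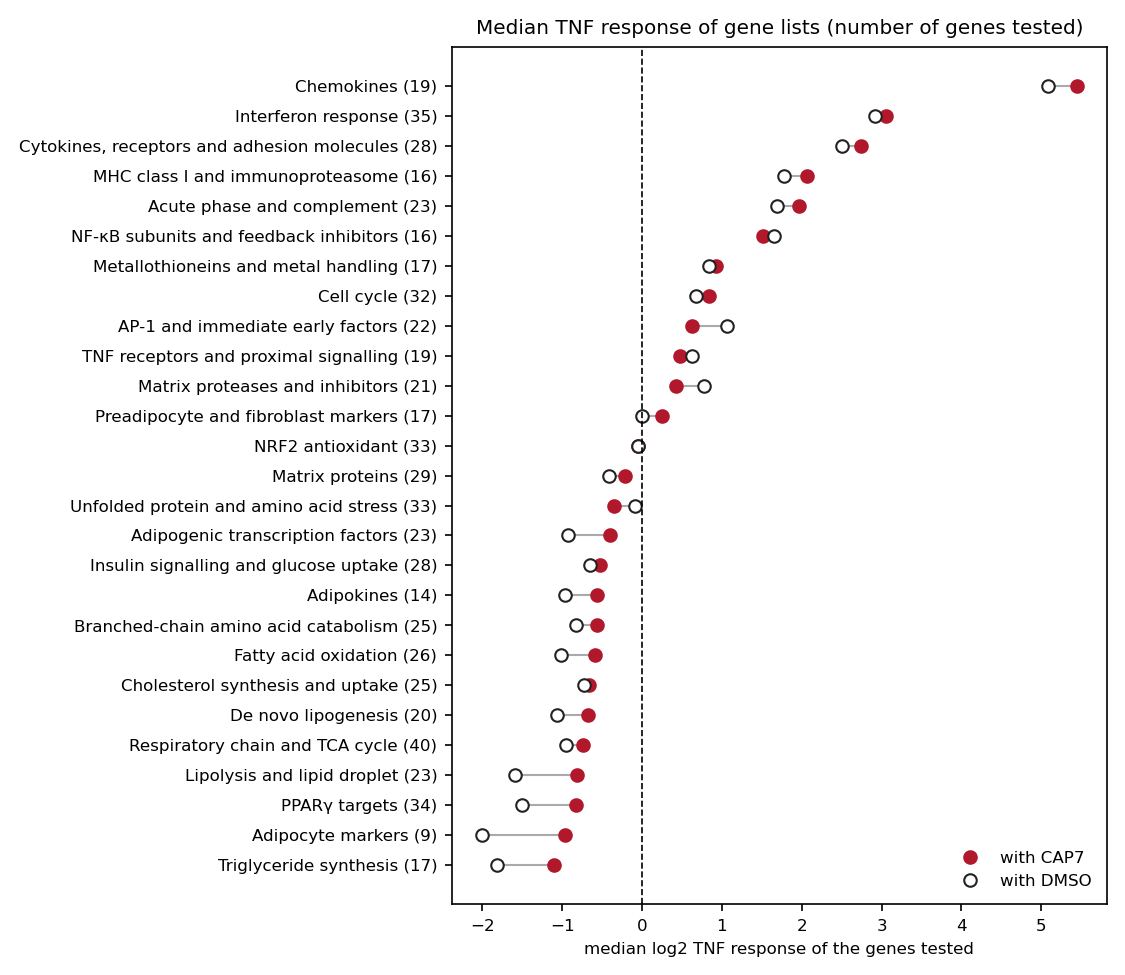
Median log2 TNF response of gene lists with CAP7 (filled) and with DMSO (open), lists sorted by the value with CAP7, and the median of all genes as a dashed line. The leukocyte markers and the endothelial and mural markers, of which few could be tested, are not drawn. Lists of lipid storage sit nearer 0 with CAP7, at -0.83 with CAP7 and -1.51 with DMSO for the PPARγ targets. Of the inflammatory lists, acute phase and complement genes had a median of 1.97 with CAP7 and 1.69 with DMSO, and NF-κB genes 1.51 with CAP7 and 1.65 with DMSO.

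The inflammatory lists varied. None of 16 NF-κB genes had a higher difference and 3 had a lower one: Tnfaip3 (-0.57 ± 0.194), Nfkb1 (-0.42 ± 0.142) and Otud7b (-0.45 ± 0.112). The calls for Tnfaip3 and Nfkb1 were lost with limma-voom and, when 1 library was left out, in 11 of 16 fits for Tnfaip3 (-0.57 to -0.41) and in 12 of 16 for Nfkb1 (-0.43 to -0.34). For Nfkbia the difference was -0.18 (95% interval -0.37 to 0.01) and was not called. Of 35 interferon genes 1 differed, Irf1, at -0.38 ± 0.11. Of 19 chemokines 3 were higher and none lower: Ccl2 by 1.04 ± 0.198, Ccl9 by 1.12 ± 0.138 and Cxcl5 by 0.99 ± 0.17. Of 16 MHC class I genes 6 were higher, among them Tapbp (0.59 ± 0.126) and H2-D1 (0.60 ± 0.134). Acute phase and complement genes had 11 of 23 higher and none lower, with a median difference of 0.56. In level, though, their median log2 gap between CAP7 and DMSO was -0.44 with TNF and -0.93 without. The median member thus stood lower with CAP7 in both states, while Hp, Cfb and Hpx stood higher with CAP7 under TNF. Haptoglobin rose by 6.20 with CAP7 and by 3.94 with DMSO, a difference of 2.26 ± 0.117, adjusted p = 6.51e-17. With DMSO it stood at 12290.1, 11687, 11531 and 13163 CPM with TNF, against 808, 778, 708 and 885 CPM without. The vehicle cells thus started higher without TNF and ended lower with it than the cells with CAP7, with no overlap in either state. Cfb differed by 0.99 ± 0.16 and Hpx by 0.80 ± 0.182. Mmp9 rose more with CAP7, by 6.05 with CAP7 and 4.10 with DMSO, a difference of 1.95 ± 0.512. The calls for Hpx and Mmp9 were lost with limma-voom.

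Under the same rule the lower differences were led by Il13ra2, a decoy receptor for interleukin 13, which rose by 4.64 with CAP7 and by 6.84 with DMSO (difference -2.20 ± 0.47, adjusted p = 0.000825), a call that was lost with limma-voom. Il13ra2 was near 0 without TNF, with 72 counts over the libraries with CAP7 alone and 21 over those with DMSO alone. With TNF it averaged 20.9 CPM with CAP7 and 37.2 CPM with DMSO. Stress and early-response factors stood beside it. Of 22 AP-1 genes 7 were lower and Ier5 higher, and of the 33 genes for unfolded proteins and amino acid shortage 11 were lower and Dnajb9 and Xbp1 higher. Atf3 differed by -1.62 ± 0.261, the kinase gene Pim1 by -1.59 ± 0.195, Fosl1 by -1.57 ± 0.145, Maff by -1.45 ± 0.163, and the endocytic receptor Ly75 by -1.56 ± 0.167. Atf3, Pim1, Fosl1 and Maff stood higher with CAP7 alone than with DMSO alone. Fosl1 averaged 54.3 CPM with CAP7 alone and 17.2 CPM with DMSO alone, and with TNF 93 and 87.7 CPM. Atf3 averaged 11.8 CPM with CAP7 alone and 4.64 CPM with DMSO alone, and with TNF 16.2 and 19.5 CPM. Its libraries overlapped in the CAP7 pair. Pim1 and Maff also stood lower with TNF plus CAP7 than with TNF plus DMSO. Hmox1 was called in opposite directions, with a fall of 0.86 with CAP7 and a rise of 0.60 with DMSO. Its levels with DMSO were 174, 190.0, 144 and 178 CPM with TNF, against 117, 104, 100.2 and 130.4 CPM without, and the difference was -1.47 ± 0.285, adjusted p = 0.000256. Snord89, a small nucleolar RNA whose libraries overlapped in the CAP7 pair, differed by -1.89 ± 0.529. The metallothionein Mt2 rose less with CAP7, with a difference of -1.06 ± 0.2, and Tfrc fell less, with 1.09 ± 0.137. In the cell cycle list 8 of 32 were higher and Ccne1 lower, with Ccnd1 at 1.02 ± 0.121. Cdkn2c fell less, with 1.78 ± 0.132.

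A difference on the log2 scale does not say at which level a gene ended, so the levels of the 4 groups were set side by side. Of the 1480 higher differences, 966 (65.3%) had a larger gap between CAP7 and DMSO with TNF than without, with a median gap of 0.54 with TNF and -0.17 without. Of the 854 lower differences, 483 (56.6%) had the larger gap without TNF, with medians of -0.21 with TNF and 0.28 without. For the PPARγ targets the median gap was 1.41 with TNF and 0.83 without, so they stood higher with CAP7 in both states. Cidec shows this: with DMSO it was at 101, 82.1, 77.3 and 99.9 CPM with TNF, against 1354, 1272, 1322 and 1238 CPM without, and each library with TNF plus CAP7 lay above each DMSO library with TNF. Chemokines went the other way, with a median gap of -0.84 with TNF and -1.16 without. Ccl2 had the larger fold with CAP7 but the lower level: with DMSO it stood at 2228, 2287, 2486 and 2456 CPM with TNF, against 22.4, 29.1, 28.9 and 29 CPM without. The interferon genes had median gaps of -0.49 with TNF and -0.69 without, and the preadipocyte and fibroblast markers -0.53 with TNF and -0.81 without. For unfolded proteins and amino acid shortage the median gaps were 0.16 with TNF and 0.41 without. For the AP-1 genes they were -0.32 with TNF and -0.38 without. For Hmox1 the groups were furthest apart without TNF, at 561 CPM with CAP7 alone and 113 CPM with DMSO.

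The third question was how the TNF response with CAP7 stood beside that with ROSI and with SCO. With ROSI 3594 genes rose (24.9%) and 3240 fell (22.5%), and with SCO 3613 rose (25%) and 3363 fell (23.3%). The correlation across genes with the CAP7 response was 0.868 for ROSI and 0.868 for SCO. Of the genes that rose with CAP7, 83.9% also rose with ROSI (78.9% of the ROSI increases) and 82.0% with SCO (76.7%). Of those that fell, 79.0% fell with ROSI (78.7%) and 78.5% with SCO (75.4%). Differences were rare. Against ROSI 65 genes were called (0.451%), 28 higher (0.194%) and 37 lower (0.256%) with CAP7, and the split turned to 35 higher and 29 lower with RLE factors. Against SCO 116 were called (0.804%), 85 higher (0.589%) and 31 lower (0.215%), or 105 and 21 with library size alone. At an unadjusted p under 0.05 the numbers were 1364 and 1845 of 14428 genes, where chance alone gives about 1 in 20. These counts move with the method and with single libraries: between 37 and 70 against ROSI when 1 library was left out, 37 of them without replicate 1 of ROSI alone, and between 48 and 284 against SCO. The SCO number was lowest without replicate 3 and highest without replicate 4 of TNF plus CAP7, and it moved by over 1.5 times in 10 of 16 such fits. No dose is given, so whether the compounds were matched in strength is not known.

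By the same rule, the 4 highest differences against ROSI were Il1rl1, the receptor of interleukin 33 (1.17), Olr1, a receptor for oxidised LDL (1.09), the ribonucleotide reductase subunit Rrm2 (1.04) and Aspn (0.93). Il1rl1 rose by 5.56 ± 0.178 with CAP7 and by 4.39 ± 0.165 with ROSI. Rrm2 stood at 8.83, 14, 12.2 and 14 CPM with TNF plus CAP7, against 3.48, 4.01, 4.63 and 3.91 CPM with CAP7 alone, without overlap, and rose by 1.62 ± 0.132 with CAP7 and 0.58 ± 0.119 with ROSI (difference 1.04 ± 0.177, adjusted p = 0.00294). With Mcm5, Tk1 and Top2a it made up the 4 of 32 cell cycle genes with a higher difference against ROSI, and none was lower. The 4 lowest were Cxcl5 (-1.09), the magnesium transporter family member Slc41a3 (-0.84), autotaxin (Enpp2, -0.83) and Mt2 (-0.83). Of the 4 highest, Olr1 and Rrm2 stood lower with TNF plus CAP7 than with TNF plus ROSI, and Il1rl1 and Aspn higher. Olr1 averaged 57.5 CPM with TNF plus CAP7 and 196.6 CPM with TNF plus ROSI. With CAP7 alone and ROSI alone it averaged 1.77 and 12.6 CPM. Of the 4 lowest, Enpp2 and Mt2 stood higher with TNF plus CAP7. Enpp2 averaged 709 CPM with TNF plus CAP7 and 654 CPM with TNF plus ROSI. Cxcl5 stood at 288, 323, 318 and 326 CPM with TNF plus CAP7, against 10.2, 7.32, 8.83 and 5.96 CPM with CAP7 alone, also without overlap, and rose by 5.30 ± 0.134 with CAP7 and by 6.38 ± 0.144 with ROSI (difference -1.09 ± 0.188, adjusted p = 0.00294). The calls for Il1rl1 and Cxcl5 were lost with limma-voom, those for Il1rl1, Slc41a3 and Mt2 when only the libraries compared were fitted, and that for Mt2 also with RLE factors, library size alone, DESeq2 or the stricter filter. With 1 library left out the call for Il1rl1 was lost in 9 of 16 fits (1.03 to 1.18), for Mt2 in 11 (-0.87 to -0.70), for Slc41a3 in 3 (-0.79 to -0.73; replicate 3 of either CAP7 group or replicate 1 of ROSI alone), and for Aspn without replicate 3 of TNF plus CAP7 (0.72). Of the 34 PPARγ targets the fatty acid transporter Slc27a1 and Angptl4 differed, and Angptl4 rose by 1.52 with CAP7 and 0.96 with ROSI (difference 0.57 ± 0.0858). The median PPARγ target changed by -0.83 with CAP7 and by -0.69 with ROSI.

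Against SCO, the 4 highest differences were the matricellular gene Ccn1 (1.20), osteopontin (Spp1, 1.18), Ccl9 (1.17) and Igfals, which stabilises insulin-like growth factors in the blood (1.09). Of these 4, Ccl9 stood lower with TNF plus CAP7 (334 CPM) than with TNF plus SCO (493 CPM), and the others higher. Ccn1 rose by 1.98 ± 0.142 with CAP7 and by 0.79 ± 0.137 with SCO (difference 1.20 ± 0.196, adjusted p = 0.000919). The lowest were Snord13 (-1.02), Usf3 (-0.73), the RNA-silencing gene Ago2 (-0.68) and Ly75 (-0.65), and these 4 calls depended on single libraries. With 1 library left out, Snord13 was lost in 12 of 16 fits (-1.05 to -0.84), Usf3 in 9 (-0.74 to -0.63), Ly75 in 11 (-0.69 to -0.53), and Ago2 without replicate 3 of TNF plus SCO (-0.57). Snord13 was also lost with RLE factors and with library size alone, and Ly75 with limma-voom and when only the libraries compared were fitted. Among the higher ones, Thrsp fell by 2.27 with CAP7 and by 3.34 with SCO (difference 1.06 ± 0.2, adjusted p = 0.00348), Adrb3 by 2.65 with CAP7 and 3.56 with SCO (difference 0.92 ± 0.17), and B3galt2 by 1.24 with CAP7 and 1.95 with SCO (difference 0.71 ± 0.168), the last lost in 8 of 16 fits that left out 1 library, at 0.58 to 0.71. Haptoglobin rose by 6.20 with CAP7, 6.17 with ROSI and 5.50 with SCO, with a called difference from SCO (0.70 ± 0.116) and an uncalled one from ROSI (0.03, 95% interval -0.21 to 0.26). Of 34 PPARγ targets Arxes2 was higher and Plin2 lower against SCO, and none of the other targets was called.

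**Figure D5:**
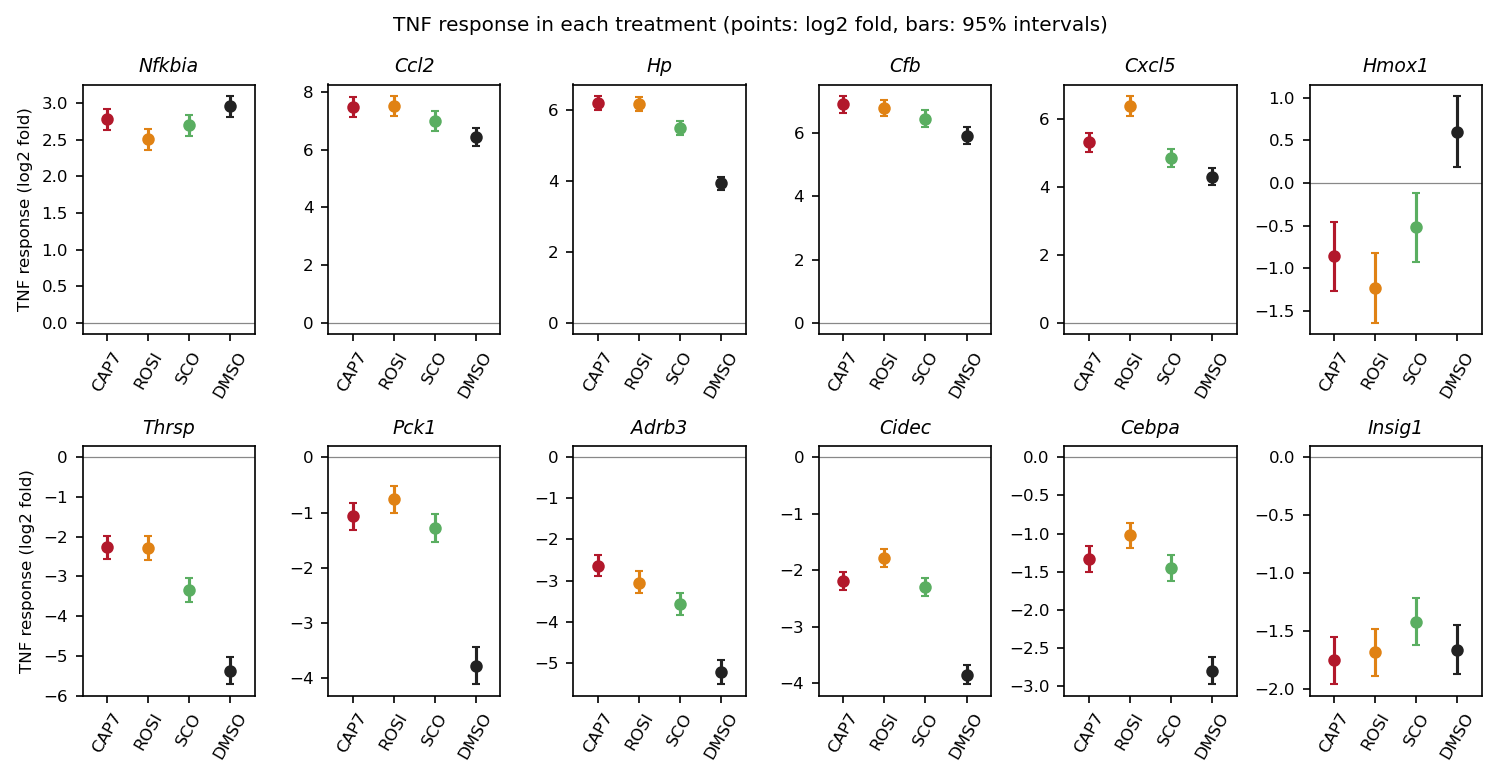
Log2 TNF response of 12 genes with CAP7, ROSI, SCO and DMSO (left to right in each panel), points with 95% intervals from the fit. For Thrsp, Pck1, Adrb3 and Cidec the DMSO response lies lowest, for Hp it is the smallest rise, and Hmox1 is above 0 only with DMSO.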

How the data were processed

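Libraries of mRNA 3' ends (QuantSeq) came from 3T3-L1 adipocytes. The authors deposited raw counts per Ensembl gene, 1 column for each of 32 libraries (4 in each of 8 groups), without normalization. Per the submitters' processing notes, cutadapt 4.9, STAR 2.7.11b and HTSeq 2.0.5 were used with the build GRCm39. How reads shared by several genes, strand and overlapping genes were counted is not given in the sources used here, so near-identical and overlapping genes are uncertain. The reference annotation has another build and served for symbols only, and promoter coordinates are those of RefSeq.

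Of 57186 genes listed, 14428 passed edgeR's filterByExpr by group, 13983 of them with a symbol. A single edgeR 4.0.16 model (R 4.3.3) took the counts of all 32 libraries, scaled by TMM, with a mean for each group and 24 residual degrees of freedom, and changes were tested by its quasi-likelihood F test, and p-values were adjusted by Benjamini-Hochberg over all genes. SE is the log2 change over the square root of F, and intervals of 95% come from the same fit. Library totals ran from 11312837 to 37675008 counts, and counting intervals cover counting error only. Alternatives used limma 3.58.1 and DESeq2 1.42.0, and the scripts were tested on simulated data.

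Genes are named by rule: the 12 largest increases and decreases with no overlap and at least 16 CPM in a group, the 8 or 4 highest and lowest called differences, for each of 29 lists up to 4 members with the lowest p and up to 2 for the difference from DMSO, and a set of well-known genes. Some genes that the rule names are not reported here. Members of small counts in a list are named beside these, after their values were seen. The groups compared, the lists and the well-known genes were chosen with earlier results of these data known. Some genes stand in several lists, whose counts therefore overlap.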

Additional observations from a re-analysis of the deposited data

Results flagged for a closer look

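The difference between the TNF response with CAP7 and that with another treatment was called for 2334 genes against DMSO, 65 against ROSI and 116 against SCO, by the interaction test of edgeR. Among the fat cell genes named above, the log2 difference from DMSO was 3.10 for Thrsp, 2.71 for Pck1, 2.59 for Adrb3, 1.96 for Dgat2, 1.85 for Arxes2, 1.81 for Gpd1, 1.67 for Lipe, 1.66 for Cidec, 1.59 for Abcd2, 1.52 for Cavin2, 1.46 for Cebpa, 1.21 for Slc2a4, 0.94 for Mdh1, 0.88 for Hibch and 0.75 for Adipoq. Outside these groups it was 3.85 for B3galt2, 2.65 for 6030408B16Rik, 2.63 for Clstn3, 2.54 for Rasd1, 2.33 for Adcyap1r1, 1.78 for Cdkn2c, 1.09 for Tfrc and 1.02 for Ccnd1.

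Of the inflammatory genes it was 2.26 for Hp, 1.95 for Mmp9, 1.12 for Ccl9, 1.04 for Ccl2, 0.99 for Cxcl5, 0.99 for Cfb, 0.80 for Hpx, 0.60 for H2-D1 and 0.59 for Tapbp, and below 0 it was -2.20 for Il13ra2, -0.57 for Tnfaip3, -0.45 for Otud7b, -0.42 for Nfkb1 and -0.38 for Irf1. The stress and early factors stood at -1.62 for Atf3, -1.59 for Pim1, -1.57 for Fosl1, -1.47 for Hmox1, -1.45 for Maff and -1.06 for Mt2, with Ly75 at -1.56 and Snord89 at -1.89.

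Against ROSI the called log2 differences were 1.17 for Il1rl1, 1.09 for Olr1, 1.04 for Rrm2, 0.93 for Aspn, 0.57 for Angptl4, -0.83 for Mt2, -0.83 for Enpp2, -0.84 for Slc41a3 and -1.09 for Cxcl5. Against SCO they were 1.20 for Ccn1, 1.18 for Spp1, 1.17 for Ccl9, 1.09 for Igfals, 1.06 for Thrsp, 0.92 for Adrb3, 0.71 for B3galt2, 0.70 for Hp, -0.65 for Ly75, -0.68 for Ago2, -0.73 for Usf3 and -1.02 for Snord13.

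In groups of 4, the gap between the extreme library and its neighbour was a larger part of the range than Dixon's 95% critical value for 4 samples in 2 of 48 groups, those of the 24 genes whose values are given per library, and chance alone gives about 1 in 20. Cidec stood lowest in replicate 1 of CAP7 alone, at 2887 CPM, the replicate that also lay apart on the first principal component. Irf1 stood lowest in replicate 2 of TNF plus CAP7, at 324 CPM.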

How the results depend on the processing

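The alternatives were RLE factors, library size alone, no filter on low counts, a filter of at least 5 CPM in 4 libraries, DESeq2, limma-voom, a replicate block, a fit of only the libraries compared, and leaving out each library. The 6612 genes called for the TNF response with CAP7 ran from 5878 to 6861 over the first 8 alternatives and from 6176 to 6381 with 1 library left out. Those called at least 2-fold numbered 1143 with the stricter filter, which tested fewer genes, against 1881. The 2334 differences from DMSO ran from 2200 to 2589 and from 1893 to 2536. The 65 differences from ROSI became 165 with no filter, 146 with DESeq2 and 29 in the fit of only the libraries compared, and 37 to 70 with 1 library left out. The 116 differences from SCO became 343 with no filter, 175 with the stricter filter and 280 with DESeq2, and 48 to 284 with 1 library left out. The cause was not tested. Higher and lower calls split 88 and 58 against ROSI with DESeq2, and 35 and 29 with RLE factors. Against SCO the split was 188 and 92 with DESeq2, and 105 and 21 with library size alone. The uncalled difference of Hp from ROSI, 0.03, ran from -0.06 to 0.11 over the fits that left out 1 library and was below 0 in 4 of 16, at -0.06 to -0.01.

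Of 126 named changes with CAP7, 126 kept direction and call with RLE factors, with DESeq2, with limma-voom and with the replicate block. Of 47 differences from DMSO, 42 did so with limma-voom and 47 under the other 7 alternatives. No strong pairing by replicate number was seen: deviations of same-numbered libraries of the CAP7 pair correlated at -0.01 to 0.02, and 1 of 4 libraries correlated best with its own number. Over all groups the median correlation was 0.011 for the same number and -0.00519 for other numbers. The labels do not say whether the numbers mark shared cultures, and values this near 0 cannot show that the samples were unpaired. With the replicate block 6688, 2387, 75 and 131 genes were called for the response with CAP7 and its differences from DMSO, ROSI and SCO. The block changed no call among the named results checked, but it moved some list counts. Of the 33 NRF2 and antioxidant genes, for example, 10 rose and 13 fell with the block, against 8 and 14 without it. At these depths of 17008930 to 28569986 counts, genes near 0 without TNF give only a ratio with a wide counting interval or a bound.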

Other observations

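A few genes that fell with TNF in the presence of CAP7 lie in groups that mostly rose, and they are named here after their values were seen. Fos, the partner of Jun proteins in AP-1, averaged 2.23 ± 0.458 CPM with TNF plus CAP7 and 8.62 ± 2.14 CPM with CAP7 alone (SD, n = 4 each), while Junb averaged 214 ± 10.7 CPM with TNF plus CAP7 and 18.3 ± 2.93 CPM with CAP7 alone. The protease inhibitor Timp4 averaged 0.224 ± 0.174 CPM with TNF plus CAP7 and 2.74 ± 0.557 CPM with CAP7 alone, while Timp1 averaged 447 ± 90.3 CPM with TNF plus CAP7 and 20.1 ± 6.36 CPM with CAP7 alone. The iron exporter Slc40a1 averaged 3.69 ± 1.21 CPM with TNF plus CAP7 and 15.3 ± 1.81 CPM with CAP7 alone, and the chemokine Ccl6 averaged 41.5 ± 3.61 CPM with TNF plus CAP7 and 175 ± 17.9 CPM with CAP7 alone.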
